A study of Mus musculus with 6 samples.

Results

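The Hox genes are the homeobox genes of the 4 Hox clusters, and they are described here by paralogue number, the number in each gene's name, which gives its position in its cluster. All genes with a symbol made of Hox, a cluster letter from a to d and a number were taken, which gave 34 of the 37475 genes in the deposited table. They comprised 11 genes of the Hoxa cluster on chromosome 6, 8 of Hoxb on chromosome 11, 7 of Hoxc on chromosome 15 and 8 of Hoxd on chromosome 2. Another 5 genes of the family, Hoxb1, Hoxb13, Hoxc12, Hoxc13 and Hoxd12, were not analysed here. The libraries come from wild-type mice whose spinal cord had been bruised by a contusion at thoracic level T10 and was collected on day 3. All animals were injured: 3 mice received daily intraperitoneal phosphate-buffered saline (PBS) and 3 received syringin, a plant phenylpropanoid glucoside, at 50 mg/kg a day for 3 days. Uninjured cord was not analysed here. Not given in the sources used here are the stretch of cord taken from each animal and the age of the mice.

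Hox genes encode homeodomain transcription factors that give cells their address along the head-to-tail axis of the embryo. In each cluster the genes lie in the order in which they are used along the body, so that low paralogue numbers are transcribed from the hindbrain backwards and higher numbers start progressively further down the cord. Around the brachial cord the genes of the middle numbers specify motor neuron columns and pools, the ninth group acts at thoracic levels, and the tenth and eleventh groups act at lumbar levels, where they direct the motor neurons of the hindlimb. The pattern is set in the embryo and persists in part in the adult cord, held by Trithorax and Polycomb chromatin complexes. Hox proteins bind DNA with cofactors of the TALE homeodomain family, Pbx and Meis proteins.

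Each of the 34 members has a homeobox of 180 bases, the part of the gene that encodes the DNA-binding homeodomain. The 3 homeoboxes of paralogue 10 are shown because these genes separated single libraries of the same treatment, and because they show how far near relatives differ in sequence. They were read from GENCODE M21 transcripts on GRCm38, each in exon 2 of 2, and capitals mark the positions at which the 3 genes are not all the same.
Hoxa10 (chr6:52232554-52232733, minus strand): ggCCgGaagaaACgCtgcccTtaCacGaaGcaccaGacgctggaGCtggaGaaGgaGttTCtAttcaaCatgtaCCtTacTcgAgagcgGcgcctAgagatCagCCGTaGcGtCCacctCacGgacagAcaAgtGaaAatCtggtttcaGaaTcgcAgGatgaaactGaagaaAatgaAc
Hoxc10 (chr15:102970848-102971027, plus strand): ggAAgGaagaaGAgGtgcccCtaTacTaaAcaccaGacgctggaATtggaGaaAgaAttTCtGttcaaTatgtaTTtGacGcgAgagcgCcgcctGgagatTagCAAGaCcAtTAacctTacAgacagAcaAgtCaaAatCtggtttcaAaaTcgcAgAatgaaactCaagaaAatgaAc
Hoxd10 (chr2:74694141-74694320, plus strand): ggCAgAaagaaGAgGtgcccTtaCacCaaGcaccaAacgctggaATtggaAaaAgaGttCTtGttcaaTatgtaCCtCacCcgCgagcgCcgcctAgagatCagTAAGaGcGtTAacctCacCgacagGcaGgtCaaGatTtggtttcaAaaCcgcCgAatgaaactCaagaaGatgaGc
The 3 sequences differed at 50 of the 180 positions. Over all members, pairs with the same paralogue number had a median homeobox identity of 82.5% (34 pairs), and pairs with different numbers one of 62.2% (527 pairs). The longest run of bases shared by any 2 members' homeoboxes was 52 bases.

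Counting limits touch some members more than others. In the deposited coordinates, 11 members overlapped another member on the same strand: Hoxa3 spans Hoxa4, Hoxa5 and Hoxa6, Hoxc5 spans Hoxc6, Hoxc8, Hoxc9 and part of Hoxc10, and Hoxd3 and Hoxd4 overlap each other. Annotated transcripts of Hoxc5 and Hoxc10, and of Hoxd3 and Hoxd4, share runs of 150 bases or more, so the division of reads within these pairs is uncertain. The use of strand in counting is not stated, so reads of Hoxa11 and its antisense gene Hoxa11os, or of Hoxb5 and Hoxb5os, cannot be told apart. Hoxb8 and Hoxb9 overlapped no other gene of the table.

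The libraries held between 65.6 and 78.8 counts (times 1e+06), of which the Hox genes took 0.0349% to 0.0584%. Small counts piled up at multiples of 4, with the value 4 occurring 1.497 times as often as the mean of its neighbours, so the floor for a count of 0 was set at 3 fragments of 4 counts, or 12 counts, which covers counting error only. The labels call the 3 libraries of a group biological replicates. Markers of the tissue were present: 10 of 10 neuron markers, 6 of 6 oligodendrocyte markers and 6 of 6 astrocyte markers had counts in every library, and 3 markers of the forebrain, a region without Hox expression, summed to 0.264 to 1.72 counts per 1e+06 (CPM).

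Expression of the Hox genes formed a single hill along the paralogue axis, with its top at the eighth group. Levels between genes are given as deposited FPKM, fragments scaled by gene length and library size. Averaged over the 6 libraries, the FPKM summed over the clusters was 4.52 for the second group, 7.26 for the third, 10.9 for the fourth, 13.9 for the fifth, 18.6 for the sixth and 18.5 for the seventh. It then reached 40.2 for the eighth group, 24.8% of all Hox FPKM, followed by 29.6 for the ninth (18.3%), 17.4 for the tenth (10.7%) and 0.525 for the eleventh. The thirteenth group, Hoxa13 and Hoxd13, which pattern the most caudal structures, had 0 counts in every library, so at most 12 counts per library are allowed for either gene.

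**Figure D1:**
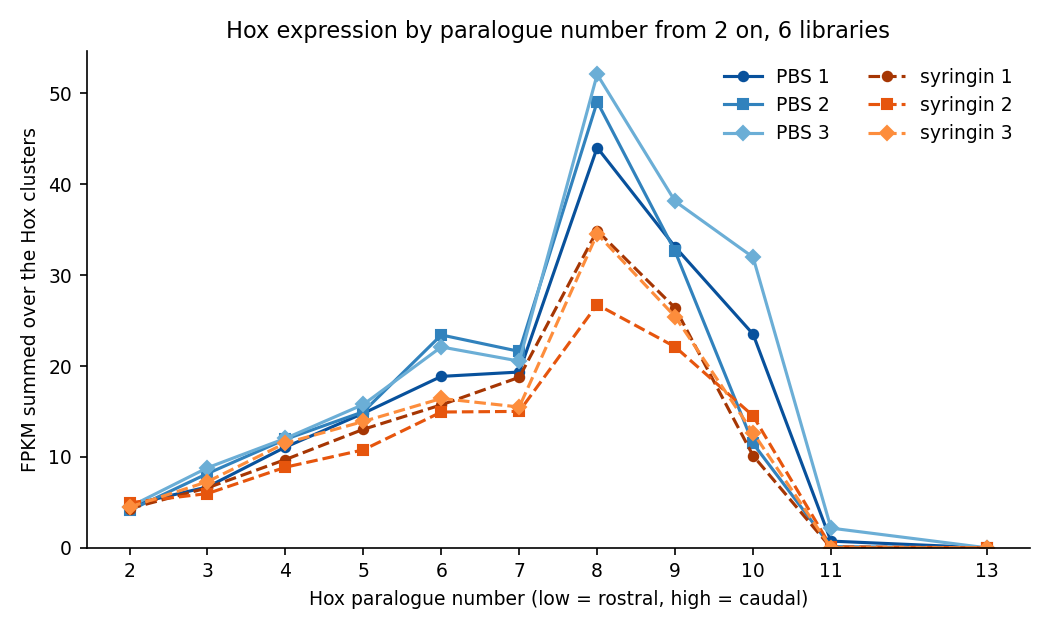
Hox FPKM summed over the clusters (y axis) against paralogue number from 2 on (x axis), one line per library, with PBS libraries solid and syringin libraries dashed. The lines lie together for the second to the fourth group, all peak at the eighth group, and spread again at the tenth, where PBS libraries 1 and 3 stand at 23.5 and 32.0 and the other 4 libraries between 10.1 and 14.5.

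Among single genes, Hoxb8 had the highest level, with a mean of 20.0 FPKM over the 6 libraries and a range of 11.3 to 28.5, followed by Hoxb9 at 15.5 (11.4 to 21.1), Hoxd8 at 12.2 (9.39 to 14.4), Hoxa7 at 10.2 (8.05 to 12.0) and Hoxc10 at 10.1 (5.52 to 18.0). Hoxd1, a gene of low paralogue number, was the lowest of the first 9 groups at 0.413 FPKM. In the order of mean levels from Hoxb8 down to Hoxc5 (1.13 to 1.65), every gene overlapped its neighbour in range over libraries. The Hoxb cluster held 36.7% to 44.5% of Hox FPKM in each library and the Hoxa cluster 22.4% to 28.0%.

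The summed Hox level was lower with syringin, and its centre of mass lay slightly further rostral. Summed Hox FPKM was 177.7, 178.4 and 209.0 in PBS libraries 1 to 3, and 140.5, 124.7 and 143.0 in syringin libraries 1 to 3. The groups did not overlap, and the means were 188.3 ± 17.9 (SD, n = 3) and 136.1 ± 9.92 (SD, n = 3), a log2 ratio of -0.47. In bulk tissue, fewer cells of a type and less RNA per cell cannot be told apart. The mean paralogue number, each gene weighted by its FPKM, was 7.26, 7.01 and 7.38 in the PBS libraries and 6.95, 6.99 and 6.90 in the syringin libraries. Every syringin value lay under every PBS value, but PBS library 2 was next to syringin library 2 and further from the other PBS libraries. The group means were 7.22 ± 0.190 and 6.95 ± 0.0478 (SD, n = 3), a difference of -0.27, and no test was run on these scores over the members. Without the tenth to thirteenth groups the difference was -0.19.

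By position, the summed levels of the treatments did not overlap for paralogues 4 to 8 or 9, and overlapped for 1 to 3 and for 10 to 13. Summed FPKM of paralogues 1 to 3 was 12.2, 13.1 and 14.2 with PBS and 11.9, 11.6 and 13.04 with syringin, and these ranges overlapped. Paralogues 4 to 8 gave 108.1, 121.0 and 122.5 against 92.1, 76.4 and 91.9, with no overlap. The ninth group gave 33.1, 32.6 and 38.1 against 26.4, 22.1 and 25.4, again with no overlap. Paralogues 10 to 13 gave 24.3, 11.6 and 34.1 against 10.1, 14.6 and 12.7: PBS library 2 lay among the syringin libraries and the other PBS libraries above them. As a share of all Hox FPKM, paralogues 10 to 13 held 13.7%, 6.51% and 16.3% with PBS and 7.22%, 11.7% and 8.85% with syringin, so the groups overlapped. The difference in this share was -2.90 percentage points; it was -5.73 without PBS library 2, -0.813 without PBS library 3 and -1.87 without syringin library 1, and it was -5.64 without the Hoxb cluster and -1.69 without the Hoxc cluster.

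Syringin and PBS libraries were compared to ask what the treatment changed in injured cord, and among the Hox genes 3 of 30 tested members fell and 0 rose. All 3 were Hoxb genes: Hoxb5, Hoxb8 and Hoxb9, which lie on the plus strand of chromosome 11, from 96162283 for Hoxb9 to 96196947 for Hoxb5 in the table's coordinates, whose build is uncertain. In edgeR's quasi-likelihood test, adjusted by Benjamini-Hochberg over all 22114 genes, 5.01% of all genes passed, 3.39% lower and 1.62% higher. Of the 34 members, 4 did not pass the filter on low counts, Hoxc11, Hoxd11, Hoxa13 and Hoxd13. Hoxa11, at 0 counts in 2 syringin libraries, passed it through its PBS counts. Of the 26 members of the first 9 groups, which were all tested, 21 had a negative and 5 a positive fitted log2 change, while 49.1% of all genes were negative. The median over these 26 members was -0.24 (-0.32 over the 30 tested, Hoxa11 included) and the median over all tested genes was 0.008. The unadjusted p was under 0.05 for 9 of the 26, against 23.6% of all genes. For 9 of the 26 (34.6%) every syringin library lay under every PBS library, against 15.3% of all genes, and for 0 every syringin library lay above, against 14.7%.

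Whether these genes passed depended on single libraries. With each library left out in turn, the log2 change ran from -0.92 to -0.71 for Hoxb8. It ran from -0.66 to -0.54 for Hoxb5 and from -0.62 to -0.44 for Hoxb9. Hoxb8 alone passed without PBS library 1 (1.16% of all genes) or syringin library 2 (1.90%). Without PBS library 2, PBS library 3 or syringin library 3 no member passed by edgeR (32, 30 and 32 tested). In all, 184, 0 and 251 of 22829, 22804 and 22822 genes passed there. At an unadjusted p under 0.05 by edgeR were 15, 7 and 11 members, against 4256, 3449 and 4672 of all genes. DESeq2 called 7, 3 and 6 members, against 2202, 1455 and 2592 of all genes. Limma-voom called 1, 0 and 0 members, against 264, 0 and 241. Without syringin library 1 the members called were Hoxb5, Hoxb8 and Hoxc4 (8.55% of all genes). On all libraries DESeq2 called 8 members, the 3 above with Hoxb3, Hoxc4, Hoxa7, Hoxd9 and Hoxc10 (14.4% of all genes), and limma-voom called Hoxb5 and Hoxb8 (4.76%).

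**Figure D2:**
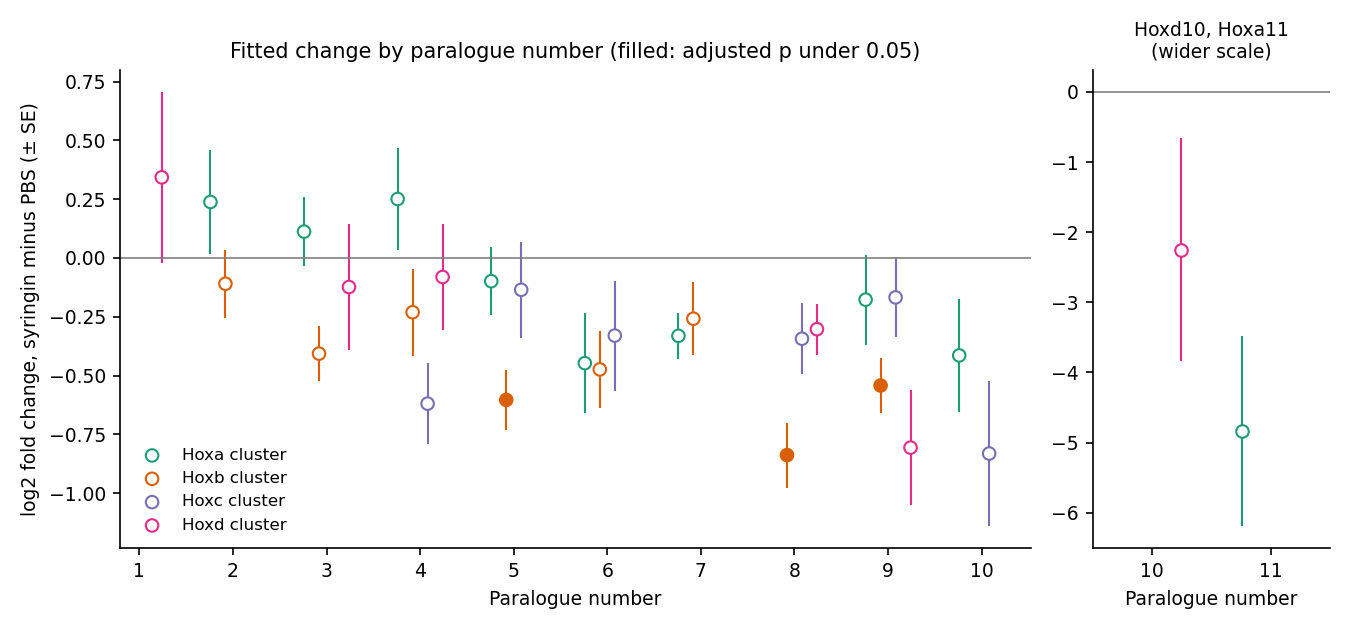
Fitted log2 fold change, syringin minus PBS, with its standard error (y axis), against paralogue number (x axis), one point per tested Hox gene, with 1 gene not drawn, and one colour per cluster; filled points passed at an adjusted p under 0.05, and Hoxd10 and Hoxa11 are drawn in a panel with a wider scale. Every gene from the fifth group on lies under 0.

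Over the first 9 groups, whose 26 members all passed the filter, the fitted change was more negative at higher paralogue numbers in 3 of the 4 clusters. The Spearman correlation of log2 fold change with paralogue number was -0.61 across the 26 genes. Within clusters it was -0.69 for Hoxa (8 genes), -0.67 for Hoxb (8) and -0.90 for Hoxd (5), and it had the other sign, 0.30, for Hoxc (5). With Hoxc10 included, the Hoxc value was -0.26 (6 genes). These are descriptions across genes that share the same 6 libraries.

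The rostral genes, paralogues 1 to 3, had changes of both signs. Of 7 tested members, 3 were negative and 4 positive, and 0 passed by edgeR (1 with an unadjusted p under 0.05, 1 call by DESeq2, 0 by limma-voom). Hoxd1 varied most between libraries in this class, at 0.662, 0.788 and 0.762 CPM with PBS against 1.05, 0.564 and 1.19 with syringin (log2 fold change 0.34 ± 0.36 SE, adjusted p = 0.629 by edgeR). Hoxa2, the gene that patterns the second branchial arch and hindbrain, had 4.29, 3.64 and 4.47 CPM against 3.86, 6.09 and 4.69 (0.24 ± 0.22 SE, adjusted p = 0.572 by edgeR). Syringin library 2 was the highest of the 6 for Hoxa2, and the other syringin libraries lay within or next to the PBS range. Hoxb3, a hindbrain and cervical gene, was the exception in this class. It had 18.9, 22.1 and 22.8 CPM with PBS and 16.1, 15.4 and 16.6 with syringin, so all syringin libraries lay lower (log2 fold change -0.41 ± 0.12 SE, adjusted p = 0.0888 by edgeR).

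The class of paralogues 4 to 8 held 2 of the 3 called members, 13.3% of its 15 tested members against 5.01% of all genes. Of the 15, 14 were negative, against 49.1% of all genes, with a median of -0.33, and for 7 (46.7%) all syringin libraries lay lower, against 15.3%. Hoxb8, the member with the highest level and a gene used in spinal sensory circuits and in myeloid cells, had 66.3, 72.1 and 81.0 CPM with PBS and 44.4, 33.3 and 45 with syringin. Syringin library 2 was the lowest and PBS library 3 the highest, and the groups were well apart at 73.1 ± 7.35 and 40.9 ± 6.60 (SD, n = 3). Hoxb8 fell by 0.84 ± 0.14 (SE) on the log2 scale (adjusted p = 0.0220 by edgeR, and 7.66e-06 to 0.548 over the other settings, the highest with 1 PBS library left). Hoxb5, a gene of cervical and brachial levels, had 14.9, 14.4 and 15.7 CPM with PBS and 10.6, 9.004 and 9.95 with syringin. The libraries of each group lay close together, at 14.98 ± 0.644 and 9.86 ± 0.810 (SD, n = 3), and Hoxb5 fell by 0.60 ± 0.13 (SE) on the log2 scale (adjusted p = 0.0408 by edgeR, and 0.000182 to 0.699 over the other settings).

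**Figure D3:**
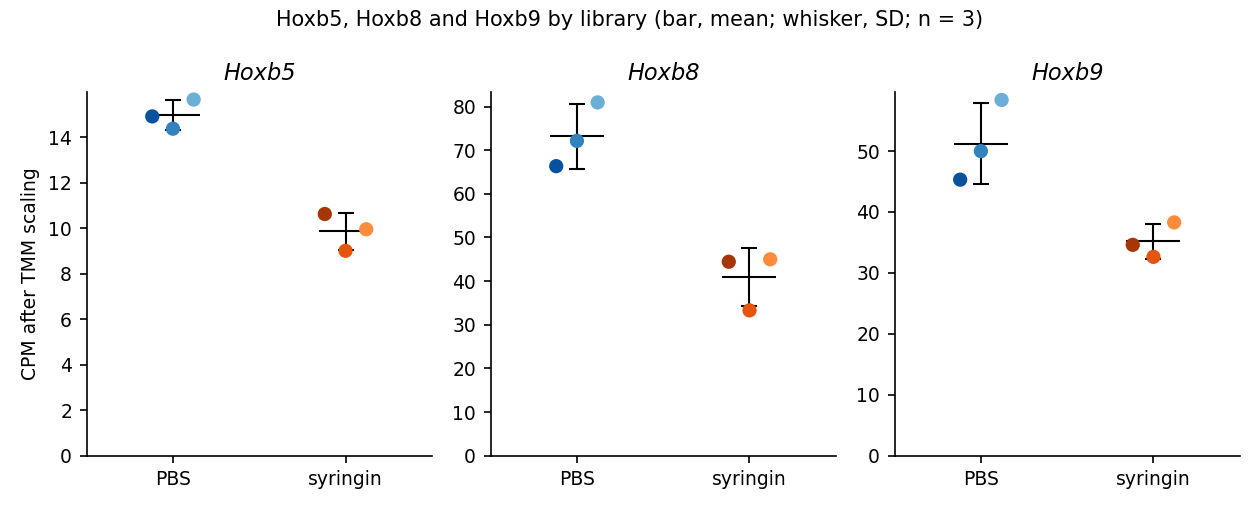
CPM after scaling (y axis, from 0) of the 3 Hox genes that passed the test, by group, with replicates 1 to 3 from left to right; horizontal bars are means and whiskers SDs of 3 libraries. Every syringin library lies under every PBS library in each panel.

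The other genes of this class that the naming rule took did not pass. Hoxc4 had 11.7, 9.70 and 10.95 CPM against 8.43, 6.45 and 6.19, with no overlap (log2 fold change -0.62 ± 0.17 SE, adjusted p = 0.0832 by edgeR). Hoxa7, which acts at lower brachial and thoracic levels, had 34.9, 37.4 and 33.9 CPM against 29.7, 25.9 and 28.9, again with no overlap (-0.33 ± 0.097 SE, adjusted p = 0.0937 by edgeR). Hoxb6 had 19.2, 25.0 and 23.4 CPM against 16.5, 13.3 and 18.9, where syringin library 3 nearly reached PBS library 1 (-0.47 ± 0.17 SE, adjusted p = 0.136 by edgeR). Hoxa5, a gene of the phrenic motor column, was at 17.6, 17.5 and 18.0 CPM against 16.5, 13.7 and 19.3 (-0.10 ± 0.14 SE, adjusted p = 0.737 by edgeR). Syringin library 3 had the highest Hoxa5 value and syringin library 2 the lowest.

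The ninth group, the thoracic set, was negative in 4 of 4 members, with a median of -0.36. Hoxb9 had 45.3, 50.0 and 58.4 CPM with PBS and 34.6, 32.6 and 38.3 with syringin. No library overlapped, the means were 51.2 ± 6.63 and 35.2 ± 2.87 (SD, n = 3), and Hoxb9 fell by 0.54 ± 0.12 (SE) on the log2 scale (adjusted p = 0.0437 by edgeR, and 0.00185 to 0.636 over the other settings). Limma-voom gave Hoxb9 an adjusted p of 0.05004, just past the threshold. Hoxa9 and Hoxc9 overlapped between the groups (log2 fold change -0.18 ± 0.19 and -0.17 ± 0.17 SE, adjusted p = 0.636 and 0.611 by edgeR). Hoxd9 divided the libraries in another way: it had 1252, 616 and 1185 counts in the PBS libraries and 602, 592 and 542 in the syringin libraries. PBS library 2 stood with the syringin libraries, and PBS libraries 1 and 3 stood together 1.81-fold and 1.90-fold above it in CPM (log2 fold change -0.81 ± 0.25 SE, adjusted p = 0.101 by edgeR).

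The lumbar genes of the tenth and eleventh groups divided the PBS libraries as Hoxd9 did, with PBS libraries 1 and 3 above PBS library 2. Hoxc10, the most abundant of them, had 2087, 1050 and 2523 counts with PBS and 910, 1172 and 1057 with syringin. Hoxa10 had 1868, 933 and 1936 counts against 1273, 1075 and 1207. For both genes PBS library 2 was at the level of the syringin libraries, while PBS library 1 was 1.77-fold and 1.78-fold, and PBS library 3 2.37-fold and 2.05-fold, above PBS library 2 in CPM.

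Hoxd10, which directs lumbar motor neuron identity together with its group, went furthest. It had 445, 0 and 791 counts in the PBS libraries and 19, 170 and 55 in the syringin libraries. With the floor of 12 counts for PBS library 2, PBS library 1 was at least 33.1-fold and PBS library 3 at least 65.0-fold higher in CPM than PBS library 2, an animal of the same group. Syringin library 2 held the highest Hoxd10 value of its group, and PBS library 3 was 4.35-fold above it.

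The eleventh group was near its floor in most libraries. Hoxa11 had 106, 19 and 240 counts with PBS and 0, 12 and 0 with syringin, Hoxc11 had 18, 0 and 67 against 0, 4 and 0, and Hoxd11 had 25, 6 and 91 against 0, 4 and 0. All 3 genes ranked the PBS libraries in 1 order, library 3, library 1, library 2. In the syringin group syringin library 2 held the counts that were not 0. These counts of 12, 4 and 4 are at or under the floor of 12, so they do not separate it from the libraries at 0. Hoxa11os, the antisense gene of Hoxa11, had 43, 13 and 106 counts against 2, 5 and 7, the same order in the PBS group. In the syringin group its highest count, also under the floor, was in syringin library 3.

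**Figure D4:**
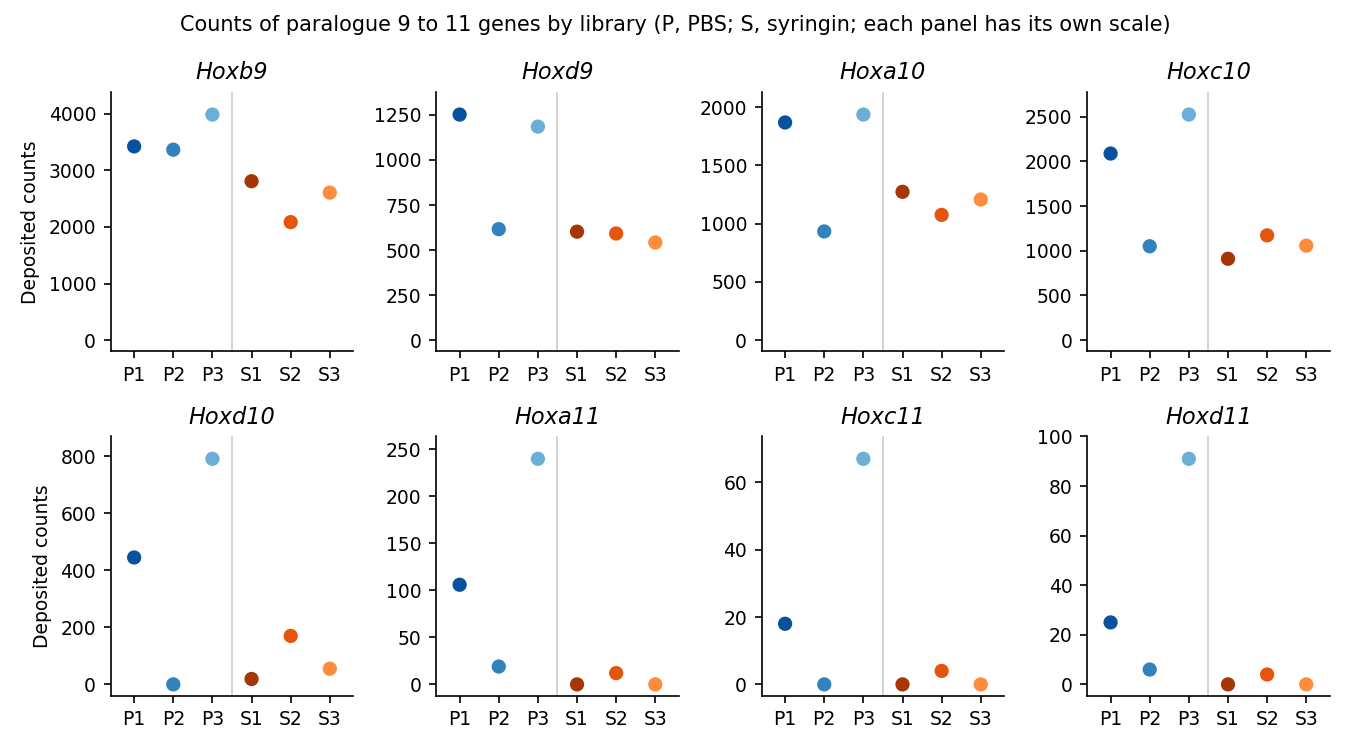
Deposited counts (y axis, each panel with its own scale from 0) of Hox genes of the ninth to eleventh groups in the PBS libraries (P1 to P3) and syringin libraries (S1 to S3). In every panel but Hoxb9, PBS library 2 stands far under PBS libraries 1 and 3 and near the syringin libraries. Hoxa9 and Hoxc9, also of the ninth group, are not drawn and lack this split. PBS libraries 1 to 3 had 2824, 2484 and 2422 counts of Hoxa9 and 651, 807 and 642 of Hoxc9.

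No member of paralogues 10 to 13 passed the group comparison. By edgeR 0 of the 4 tested members of 8 passed (2 at an unadjusted p under 0.05, 1 call by DESeq2, 0 by limma-voom). Hoxc10 had a log2 fold change of -0.83 ± 0.31 (SE, adjusted p = 0.156), Hoxa10 of -0.41 ± 0.24 (0.348), Hoxd10 of -2.25 ± 1.60 (0.456) and Hoxa11 of -4.84 ± 1.36 (0.0838), all by edgeR.

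Pairs of single libraries showed how far the positions differed within a treatment. Among the 6 pairs of libraries of the same group, the 26 tested genes of the first 9 groups were at least 2-fold apart in CPM, with 0.1 added to each value, in 0 of 156 comparisons, while over all tested genes this share was 7.90%. For the 4 tested genes of the tenth and eleventh groups it was 12 of 24 comparisons (50.0%). Among the 9 pairs of a PBS and a syringin library the counts were 6 of 234 (2.56%) and 21 of 36 (58.3%), against 11.4% over all tested genes. The 6 comparisons came from 2 genes: Hoxd9 in PBS libraries 1 and 3 against syringin libraries 1 and 3, and Hoxb8 in PBS libraries 2 and 3 against syringin library 2. Within the PBS group, libraries 3 and 2 differed at least 2-fold in 4 of 4 genes of the tenth and eleventh groups and 0 of 26 others, against 5.28% of all genes. PBS libraries 1 and 2 differed so in 2 of 4 and 0 of 26, against 7.60% of all genes, and PBS libraries 1 and 3 in 1 of 4 and 0 of 26, against 6.77%. Pairs share libraries, and the eleventh group, here Hoxa11 alone, rests on few counts and passed the filter through its PBS counts. Some of the 2-fold differences involve a count of 0 and are not secured by the floor of 12 counts. With that floor, Hoxa11 in PBS library 2 was at least 1.91-fold and 1.60-fold above syringin libraries 1 and 3. Hoxd10 in syringin library 1 was at least 1.31-fold above PBS library 2. Hoxa11 at 0 and 12 counts in syringin libraries also counted as 2-fold apart.

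**Figure D5:**
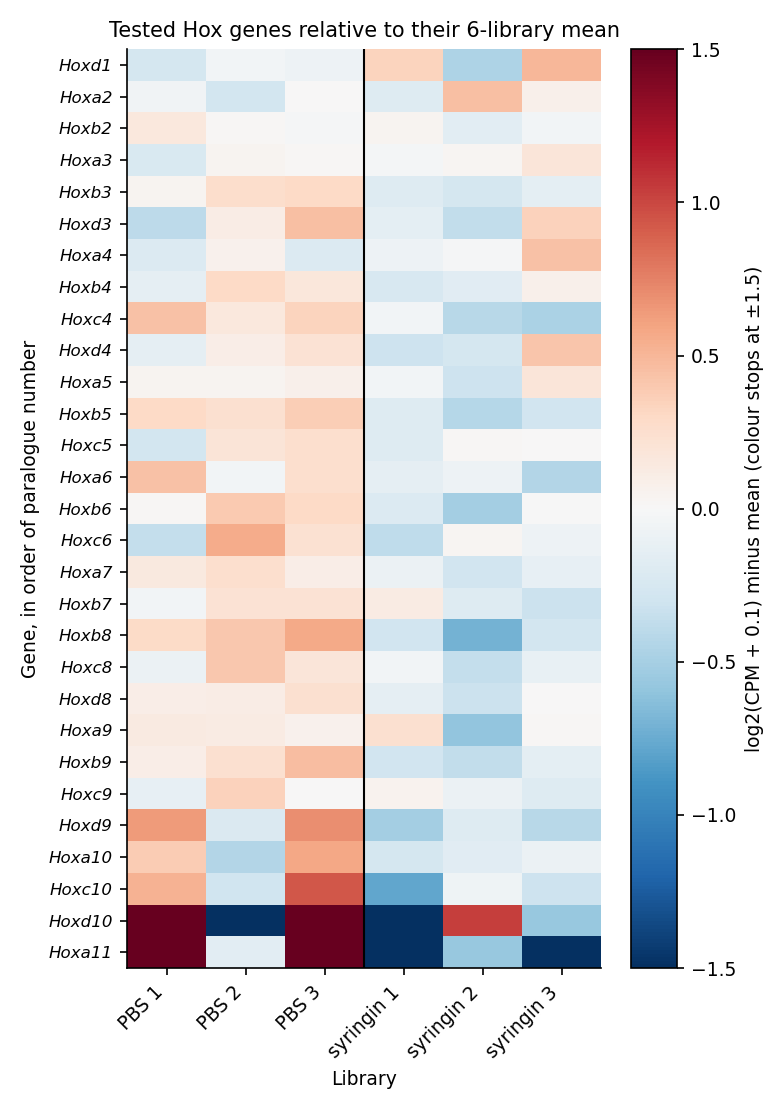
Each tested Hox gene but 1 (rows, in order of paralogue number) in each library (columns), as log2(CPM + 0.1) minus the gene's mean over the 6 libraries, with colour stopping at 1.5 either way. The middle rows turn from red to blue at the line between the groups, and the last 5 rows are red in PBS libraries 1 and 3 and blue or pale in PBS library 2.

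Ratios of neighbours within a cluster, taken in FPKM, showed the split of the PBS libraries from paralogue 9 to 10 in Hoxa and Hoxc and already from 8 to 9 in Hoxd. Hoxc10 over Hoxc9 was 4.08, 1.66 and 5.01 in the PBS libraries and 1.48, 2.64 and 2.42 in the syringin libraries. Hoxa10 over Hoxa9 was 1.13, 0.641 and 1.36 against 0.665, 1.27 and 0.881, and Hoxd9 over Hoxd8 was 0.553, 0.301 and 0.523 against 0.292, 0.413 and 0.284. In all 3 ratios PBS library 2 was the lowest PBS library and syringin library 2 the highest syringin library. One step further rostral the PBS libraries lay close together. Hoxc9 over Hoxc8 was 0.436, 0.430 and 0.394 in the PBS libraries and 0.473, 0.539 and 0.420 in the syringin libraries, where syringin library 2 was again the highest of its group. Hoxa9 over Hoxa7 was 0.552, 0.509 and 0.540 against 0.699, 0.448 and 0.613, where PBS library 2 was again the lowest of its group and syringin library 2 was the lowest of all. Hoxb9 over Hoxb8 was 0.699, 0.709 and 0.738 against 0.797, 1.00 and 0.871, so it was higher in every syringin library.

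Among the markers of cord cell types, some lists held genes that fell by edgeR, some held genes that rose, and others held no call. Over all tested genes 3.39% fell and 1.62% rose by edgeR, and 23.6% had an unadjusted p under 0.05. Of 10 neuron markers 6 fell, with a median log2 change of -0.90 and a summed level of 3486 to 4573 CPM with PBS and 1821 to 2645 with syringin, and none was at 0. Of 6 motor neuron markers 3 fell, with summed levels of 75.8 to 194.2 against 39.0 to 120.6 CPM. Prph, a filament gene that sensory ganglion neurons also express, carried much of this sum, at 128.4, 28.4 and 44.4 CPM with PBS and 96.0, 18.4 and 50.1 with syringin. Without Prph, a choice made after its values were seen, the other 5 markers summed to 65.8, 47.4 and 58.7 CPM with PBS and 24.6, 20.6 and 24.01 with syringin, and the groups did not overlap. Chat, the acetylcholine synthesis enzyme of motor neurons, had 785, 496 and 738 counts with PBS and 249, 226 and 241 with syringin. Of 6 astrocyte markers 2 fell, and of 6 markers of infiltrating macrophages and monocytes 2 rose (1064 to 1434 against 1516 to 4543 CPM). Of 3 endothelial markers 1 rose, and 0 markers of oligodendrocytes, their progenitors, ependymal cells, microglia, fibroblasts, Schwann cells, muscle and sensory ganglia passed by edgeR. At an unadjusted p under 0.05 there were 3 of 5 progenitor, 2 of 4 microglia, 3 of 4 Schwann cell and 2 of 5 tested muscle markers by edgeR. In these lists DESeq2 called 2, 1, 3 and 1, and limma-voom 0. The part of these cell types in the Hox results was not tested.

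Sensory ganglion neurons lie outside the cord and split the libraries in another way than the caudal Hox genes. Their 10 markers summed to 155.2, 6.33 and 4.56 CPM in the PBS libraries and 148.8, 3.23 and 56.5 in the syringin libraries. PBS libraries 2 and 3, which were furthest apart in Hoxd10, were both low, with 2 and 4 of the 10 markers at 0. The 4 Schwann cell markers summed to 325.2, 1377 and 1009 CPM against 130.0, 292.0 and 117.9, high in PBS libraries 2 and 3. With the ganglion markers as a covariate, Hoxb5, Hoxb8, Hoxb9 and Hoxc4 were called, 4 of 30 tested members, where 2554 of the 22114 genes were. The part of ganglion neurons or Schwann cells in the Hox results was not tested.

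Stretches upstream of gene starts were read for the members with an entry in RefSeq's promoter windows (GRCm38.p6), which matched 20 of the 34 members with 22 windows. The 250 bases before the start are shown for Hoxb8, the member with the largest called change, and Hoxd10, the member that varied most between libraries. Capitals mark matches on either strand to TTTATG, a Cdx motif, and TGATNNAT, a Pbx-Hox motif, which do not overlap each other in the Hoxb8 window.
Hoxb8 (chr11:96281655-96281904, plus strand): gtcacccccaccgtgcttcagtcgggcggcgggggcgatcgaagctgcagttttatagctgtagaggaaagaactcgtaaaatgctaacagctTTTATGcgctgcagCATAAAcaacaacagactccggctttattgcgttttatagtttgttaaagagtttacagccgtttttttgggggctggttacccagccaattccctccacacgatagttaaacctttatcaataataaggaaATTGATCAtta
Hoxd10 (chr2:74691641-74691890, plus strand): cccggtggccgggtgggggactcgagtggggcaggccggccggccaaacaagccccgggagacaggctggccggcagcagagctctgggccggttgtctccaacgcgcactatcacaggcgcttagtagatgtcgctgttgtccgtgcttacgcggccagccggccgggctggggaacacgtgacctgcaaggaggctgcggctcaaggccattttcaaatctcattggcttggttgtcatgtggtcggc
The Hoxb8 window held 2 TTTATG matches and 1 TGATNNAT match, 12 CG dinucleotides and 44.4% G and C. The Hoxd10 window held no match to any of the 4 motifs searched, 20 CG dinucleotides and 65.6% G and C. Of the 22 Hox windows, TTTATG was in 5 (10.8% of 32851 windows of all genes), TGATNNAT in 3 (7.70%), the homeodomain core TAATTA in 2 (4.80%) and the Meis motif TGACAG in 2 (15.9%). The median number of CG dinucleotides was 13 in the Hox windows and 6 in all windows. A match describes letters only.

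Of the cofactors that bind DNA with Hox proteins, 1 of 9 tested TALE genes fell by edgeR and none rose. DESeq2 and limma-voom each called 1 of them, and limma on log2(FPKM + 0.1) called 0. Meis2 was at 30.3 ± 2.59 CPM with PBS and 21.3 ± 1.24 with syringin (SD, n = 3), and fell by 0.51 ± 0.11 (SE) on the log2 scale (adjusted p = 0.0412 by edgeR). Pbx3 had a change of -0.30 ± 0.11 (SE, adjusted p = 0.165 by edgeR). Of 19 Polycomb genes, the repressors that keep silent Hox genes shut, 1 rose and 2 fell by edgeR, with a median of 0.09. Of all genes 1.62% rose and 3.39% fell. DESeq2 called 4 Polycomb genes, limma-voom 2 and limma on log2(FPKM + 0.1) 1. Ezh2, the H3K27 methyltransferase, rose from 25.5 ± 0.656 to 37.4 ± 5.16 CPM (log2 0.55 ± 0.12 SE, adjusted p = 0.0423 by edgeR). Cbx6 and Cbx7, which read that mark, fell from 168.5 ± 8.15 to 115.0 ± 10.7 and from 43.5 ± 2.99 to 28.0 ± 5.14 CPM (log2 -0.55 ± 0.096 and -0.63 ± 0.14 SE, adjusted p = 0.0245 and 0.0463 by edgeR). Each of these 4 genes lost its call when any library other than syringin library 1 was left out.

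Other lists around the clusters gave no call. Of 9 Trithorax genes, which keep active Hox genes open, 0 passed by edgeR (2 at an unadjusted p under 0.05, 1 call by DESeq2, 0 by limma-voom), and the smallest p belonged to Wdr5 (log2 0.33 ± 0.088 SE, adjusted p = 0.0728) and Ash2l (0.26 ± 0.087, 0.129). Of the Cdx and retinoid genes, which start Hox expression in the embryo, 6 were tested and 0 passed by edgeR (2 unadjusted, 1 by DESeq2, 0 by limma-voom), with Rarb at -0.65 ± 0.19 and Rara at 0.38 ± 0.14 (adjusted p = 0.0882 and 0.148), and Cdx1, Cdx2 and Cdx4 were not analysed here. Among the non-coding RNAs of the clusters 9 of 9 tested were negative, against 49.1% of all genes, with a median of -0.29. By edgeR 0 passed (3 unadjusted, 1 by DESeq2, 0 by limma-voom). Hoxa11os passed the filter through its PBS counts, so its sign was set by the filter. All tested RNAs but Haglr and Halr1 overlapped a member on the other strand. Reads of such pairs cannot be told apart, so these signs are not separate from those of the members. Hoxa11os (-3.48 ± 0.88 SE, adjusted p = 0.0641) and Hoxb3os (-0.88 ± 0.30 SE, adjusted p = 0.129) had the smallest p by edgeR. Hotair, transcribed from between Hoxc11 and Hoxc12, had 17, 0 and 8 counts with PBS and 0 in every syringin library, which is at or near the floor. Evx1 and Evx2, the homeobox genes beside the Hoxa and Hoxd clusters, had changes of -1.62 ± 0.98 and -1.52 ± 0.68 (SE), and 0 passed by edgeR, unadjusted or adjusted, by DESeq2 or by limma-voom.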

How the data were processed

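RNA sequencing measured expression in injured spinal cord of 3 PBS and 3 syringin mice, grouped by the treatment in their labels. TRIzol extraction and a stranded TruSeq kit for polyadenylated RNA were used, per the labels' protocols. HISAT2, StringTie, GRCm38 and mm10 are named in the submitters' processing notes, unversioned. The authors deposited 1 table with an estimated count per gene and library, already whole numbers, and an FPKM value, scaled by length and library size; other steps are not given in the sources used here. No Hox gene start equals that of GENCODE M21 on GRCm38 (0 of 34; 717 of 34804 genes), so the build of the table's coordinates is uncertain, and printed sequences carry GRCm38 coordinates of their own.

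The main test was edgeR 4.0.16's robust quasi-likelihood test (R 4.3.3; treatment was its single term) on the 22114 genes that filterByExpr kept (10 counts, total 15) after TMM scaling (factors from 0.9655 to 1.0292). Benjamini-Hochberg adjustment ran over all of them, the threshold was 0.05 and p-values are two-sided. CPM are after TMM; each standard error is the log2 fold change's size divided by the root of F. Python 3.11.15 and pandas 2.3.3 made the tables. The members, gene lists, the naming rule and the settings were chosen with earlier results of these data known. The rule named called members, the highest member of each paralogue number, the 3 smallest p not called and the most variable tested member of each position class (1 to 3, 4 to 8, 9, 10 to 13), and of the partner lists called genes and the 2 smallest p; genes named beyond it were chosen after their values were seen. Values of 1 member are not reported here. Alternatives were RLE or no composition factors, other filters, DESeq2 1.42.0, limma-voom (limma 3.58.1), limma on log2(FPKM + 0.1), counts divided by 4, the replicate number as a block, a ganglion marker covariate and each library left out. On simulated counts of this comparison (21892 genes) the test recovered 12.0%, 54.2%, 66.0% and 80.9% of planted log2 changes of 0.58, 1, 1.5 and 2, and 3 of its 104 calls were false. The simulation took each gene's spread from a fitted trend. It held no differences between single libraries beyond depth and no pile-up at multiples of 4, so these rates may not hold for the real counts.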

Additional observations from a re-analysis of the deposited data

How the results depend on the processing

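The number of genes called was 1108 and that of Hox genes 3. RLE factors, no composition factors, other filters, limma on FPKM and counts divided by 4 gave 3 Hox genes each, of 28 to 32 tested. The share of all tested genes called was 5.02% with RLE factors and 4.53% with no composition factors. It was 3.24% with no filter beyond 1 count and 8.1% with at least 1 CPM in 3 libraries. For limma on FPKM it was 3.36%, and for counts divided by 4 it was 7.34%. Limma-voom gave 2 Hox genes and 4.76% of all genes. DESeq2 called 3188 genes and 8 Hox genes, and the ganglion covariate 2554 and 4. The replicate block called 2557 genes and 4 Hox genes, with Hoxc4 added (adjusted p = 0.0402 by edgeR). Deviations from the group mean correlated at 0.292, 0.123 and 0.052 between same-numbered libraries, and at -0.229 to 0.135 between the others. Whether equal numbers share a factor was not tested, and no pairing was assumed. Leaving out 1 library gave 0 to 1944 genes and 0 to 3 Hox genes, and no gene was called without PBS library 3 (edgeR, 3449 at an unadjusted p under 0.05; 1455 by DESeq2, 0 by limma-voom). Leaving out PBS libraries 1 and 3 together, chosen after seeing the data, gave 0 genes and 0 Hox genes (edgeR, 1742 genes and 7 Hox genes unadjusted; 228 and 1 by DESeq2, 0 by limma-voom), a median of -0.22 and a Hoxd10 change of 9.43, since PBS library 2 is at 0 there. Hoxa5 turned to 0.019 without syringin library 2 (-0.23 to 0.019 over the libraries left out); the cause was not tested. Over the libraries left out in turn the Hox median ran from -0.37 to -0.24, the mean paralogue difference from -0.38 to -0.19, and the summed log2 ratio from -0.51 to -0.39, all negative. If 1 fragment adds about 4 counts, counting error is largest for the eleventh group, at 0 to 240 counts.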
